A study of Homo sapiens with 8 samples.

Results

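Messenger RNA levels of 35 genes of glycolysis and the hypoxia response were examined on 8 Illumina bead arrays of human breast cell lines, 1 array per group. The genes were taken by symbol from a fixed list, and every probe that the platform annotation assigns to them was kept apart. The list matched 52 of the 24526 probes and 34 of the 35 genes, with PKM2 under its current symbol PKM. No probe was assigned to CA9, and its level is not analysed here. The groups were the untransfected lines SUM1315 and MDA-MB231, then SUM159 stably transfected with IRX5, SUM159 stably transfected with LacZ and untransfected SUM159, then HMLE stably transfected with Foxq1, with Gcnt2 and with LacZ. SUM1315, MDA-MB231 and SUM159 are described by the submitters as basal-like breast cancer cells, and HMLE as human mammary epithelial cells. IRX5 is an Iroquois homeobox transcription factor, Foxq1 a forkhead transcription factor, Gcnt2 a glycosyltransferase of branched sugar chains, and LacZ, bacterial beta-galactosidase, the control transgene. The design text gives the purpose as finding targets of Foxq1 and IRX5 and comparing the cancer lines. Whether a transfected line was 1 clone or a pool, which promoter drove the constructs and how much oxygen the cultures had are not stated.

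Glycolysis splits glucose into pyruvate in the cytosol and yields ATP without oxygen. Glucose enters through GLUT transporters, is trapped by hexokinase, committed by phosphofructokinase and cleaved by aldolase, and the resulting trioses pass through GAPDH, phosphoglycerate kinase, phosphoglycerate mutase, enolase and pyruvate kinase. Lactate dehydrogenase then converts pyruvate to lactate, a route that many tumour cells use also when oxygen is present. When oxygen is low, prolyl hydroxylases stop marking the HIF-alpha subunits for destruction, and HIF raises transcription of most of these enzymes and of genes for angiogenesis, pH control, mitophagy and collagen hydroxylation.

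Each group is a single array, so nothing here was tested against the spread of replicates. Differences are therefore described by their size. A pair of arrays was compared at every probe for which either reached the detection limit of 144, an intensity set from the spread of background values, and a probe counted as apart where background-corrected intensities differed at least 2-fold. Where the dimmer array lay below the limit, it was set to the limit and the fold is written as "at least". The first count of each comparison is given beside the share of all compared probes that lay as far apart, and later counts of the same comparison are read against that share. All compared probes were not matched to the list for brightness, and setting dim values to the limit shortens their differences. By label, SUM159 LacZ and untransfected SUM159 differ only in the control transgene, and 3.39% of 14445 probes lay at least 2-fold apart between them.

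The introduced genes were checked first. A GCNT2 probe read 9104 in HMLE Gcnt2, against 106 in HMLE LacZ. The FOXQ1 probe went against its label, with 299 in the array labelled Foxq1 and 1641 in HMLE LacZ. The IRX5 probe read 151 in the array labelled IRX5, 165 in SUM159 LacZ and 163 in untransfected SUM159, all near the detection limit. In SUM1315 the same probe read 1216. Whether these probes lie within the constructs is not known, so the names of both arrays are those of the labels, and the directions below depend on them. Basal keratins separated HMLE from the cancer lines, and epithelial markers did so in part. KRT14 read 9157, 21430 and 16137 in the HMLE arrays labelled Foxq1, Gcnt2 and LacZ, and both KRT5 and KRT14 lay below the detection limit in all 5 arrays of the cancer lines, although the labels call these lines basal-like. E-cadherin (CDH1) was brightest in the HMLE arrays, whereas KRT19 was brightest in MDA-MB231, and both KRT18 probes lay below the limit in the array labelled Foxq1. Of 4 leukocyte markers, 1 to 3 lay above the limit in each array. PTPRC, the pan-leukocyte marker, stayed between 112 and 146 in all 8 arrays, but CD14, a monocyte marker, read 1574 in the array labelled Foxq1 and 645 in HMLE LacZ by its brighter probe. CD14 read 1072 in the array labelled IRX5, 426 in SUM159 LacZ and 179 in untransfected SUM159, and its part in the results for those arrays was not tested.

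Most of the genes were measured well above background. Of the 52 probes, 39 lay above the detection limit in all 8 arrays and these covered 32 genes, while 4 probes lay above it in none. All 4 belonged to genes with another, brighter probe (HK1 with 2, VEGFA and MXI1). The genes without a probe above the limit in every array were EGLN3, a HIF prolyl hydroxylase that is itself a HIF target, and MXI1, a MYC antagonist. EGLN3 read between 108 and 190 and passed the limit in 3 arrays. PDK1, the kinase that switches off pyruvate dehydrogenase, was also dim, between 156 and 209.

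Some of the brightest enzymes spanned less than 2-fold. GAPDH ranged from 33071 to 45924 by its brighter probe, a 1.39-fold span across the 8 arrays, and spanned 1.82-fold by its dimmer probe. ENO1, the ubiquitous enolase, spanned 1.70-fold and LDHB, the heart-type lactate dehydrogenase subunit, 1.66-fold. LDHA, the muscle-type subunit, and TPI1, triose phosphate isomerase, spanned slightly over 2-fold, with 2.06-fold and 2.23-fold. Other genes spanned more, core enzymes among them, with 4.45-fold for PGAM1 and 8.46-fold for the widest PKM probe. SLC2A1, the glucose transporter GLUT1, spanned 10.2-fold, ENO2, the neuronal enolase, 9.37-fold, PFKFB4, which makes the phosphofructokinase activator fructose 2,6-bisphosphate, 8.90-fold, and ADM, the vasodilator peptide adrenomedullin, 8.03-fold. NDRG1, a stress-induced gene linked to differentiation, spanned 9.06-fold and the membrane carbonic anhydrase CA12 9.96-fold by its brighter probe. Smaller spans were those of the neuronal glucose transporter SLC2A3, 2.87-fold, and the muscle phosphofructokinase PFKM, 2.21-fold. The hexokinases HK1 and HK2 spanned 2.01-fold by the brightest probe and 2.30-fold.

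**Figure D1:**
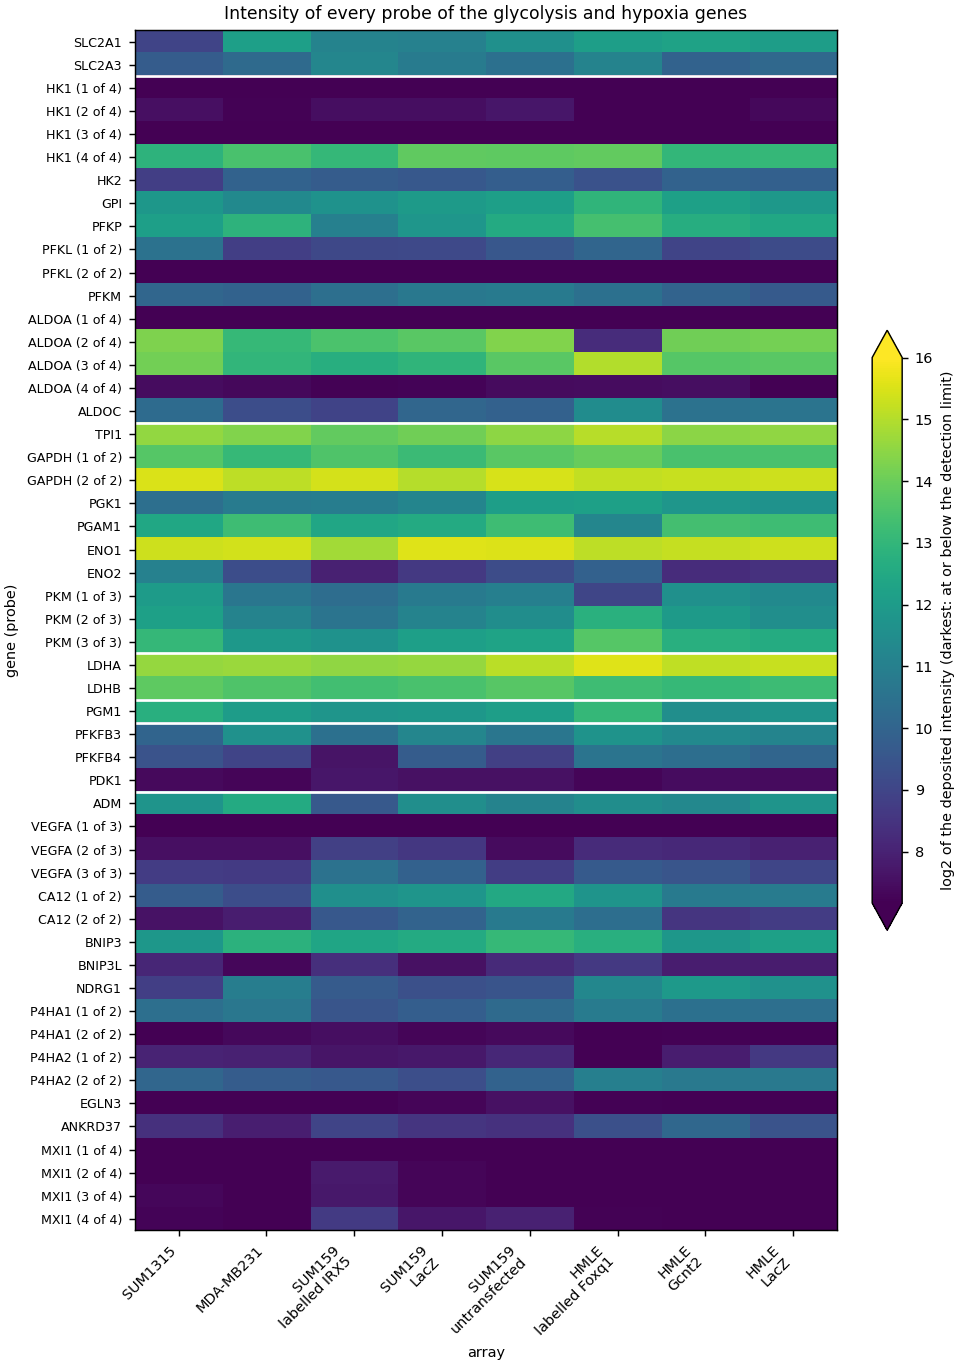
Log2 of the deposited intensity of all 52 probes (rows, ordered by role from glucose uptake to hypoxia response, with white lines between roles) in the 8 arrays (columns). GAPDH and ENO1 are bright in every array, SLC2A1 is darkest in SUM1315, ADM and PFKFB4 are darkest in SUM159 labelled IRX5, and 1 of the 4 ALDOA probes is dark in HMLE labelled Foxq1 alone.

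HMLE labelled Foxq1 was compared with HMLE LacZ, a comparison meant in the design text for finding genes downstream of Foxq1, although the FOXQ1 probe was lower in that array. The array labelled Foxq1 had the higher level at most probes of the list, and a few probes were far lower there, among them probes of genes whose other probes were higher. Of 45 probes compared, 7 were at least 2-fold higher (15.6%, against 5.6% of all probes) and 4 at least 2-fold lower (8.89%, against 6.98% of all probes), which makes 24.4% in either direction, against 12.6% of all probes. The median difference was 0.46 on the log2 scale, against 0.04 over all 14755 probes compared, and 31 of the 45 probes were higher (68.9%, against 54.1% of all probes). Enzymes of the upper steps had a median of 0.81 (12 probes), those of the lower steps 0.50 (10 probes) and the hypoxia response genes 0.26 (15 probes). In a culture measured as 1 RNA extract, fewer cells that express a gene and less RNA per cell cannot be told apart.

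GPI, which isomerizes glucose 6-phosphate, read 7877 in the array labelled Foxq1 and 3733 in HMLE LacZ, 2.12-fold higher. PGM1, phosphoglucomutase, which links glycolysis to glycogen, read 8453 in the array labelled Foxq1 and 3357 in HMLE LacZ, 2.53-fold higher. Its 8 values ran from 2928 to 8453, and the array labelled Foxq1 was the highest. ENO2 read 961 in the array labelled Foxq1 and 343 in HMLE LacZ, 2.98-fold higher. CA12, which acidifies the space around cells, was 3.32-fold higher by its dimmer probe (1327 in the array labelled Foxq1 and 422 in HMLE LacZ), while its brighter probe differed by 0.92 on the log2 scale (3453 in the array labelled Foxq1 and 1834 in HMLE LacZ). Several others stood just under 2-fold. SLC2A3 read 2205 in the array labelled Foxq1 and 1124 in HMLE LacZ, 1.99-fold. PFKP, the platelet phosphofructokinase, read 10765 in the array labelled Foxq1 and 5466 in HMLE LacZ, 1.98-fold, and the array labelled Foxq1 was the highest of the 8. ALDOC, the brain aldolase, differed by 0.89 on the log2 scale, PFKL, the liver phosphofructokinase, by 0.90, HK1 by 0.85 with its brightest probe and PFKM by 0.78. SLC2A1 hardly differed, with 4473 in the array labelled Foxq1 and 4367 in HMLE LacZ, and neither did LDHB, with 9745 in the array labelled Foxq1 and 9587 in HMLE LacZ.

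Probes of ALDOA, the main aldolase, disagreed in that array. Probe ILMN_1741148 read 32600 in the array labelled Foxq1 and 13561 in HMLE LacZ, 2.41-fold higher. Probe ILMN_1736700 read 309 in the array labelled Foxq1 and 18356 in HMLE LacZ, 65.9-fold lower. In the other 7 arrays this probe stayed between 8596 and 20344, and its lowest other array was 30.8-fold brighter. PKM, a pyruvate kinase gene, also had probes that disagreed. The platform annotation assigns its lower probe to another transcript than its higher probes, whereas both of these ALDOA probes carry the same transcript. The part of transcript choice in the PKM values was not tested. Probe ILMN_1775327 read 6965 in the array labelled Foxq1 and 2945 in HMLE LacZ, 2.38-fold higher, and probe ILMN_2366634 read 13031 in the array labelled Foxq1 and 6253 in HMLE LacZ, 2.09-fold higher. Its probe ILMN_1672650 read 519 in the array labelled Foxq1 and 2635 in HMLE LacZ, 5.34-fold lower, and was 2.53-fold below the lowest of the other 7 arrays. P4HA2, a collagen prolyl hydroxylase subunit, was at least 3.25-fold lower by its dimmer probe (132 in the array labelled Foxq1 and 397 in HMLE LacZ), while its brighter probe read 2021 in the array labelled Foxq1 and 1688 in HMLE LacZ. PGAM1, phosphoglycerate mutase, has 1 probe, which read 2362 in the array labelled Foxq1 and 9815 in HMLE LacZ, 4.20-fold lower. Its other 7 values ran from 5334 to 10402, so the array labelled Foxq1 was the lowest, and there is no second probe to set beside it. These 3 probes of ALDOA, PKM and PGAM1 were the ones of the list at which the array labelled Foxq1 was 2-fold below all other arrays, which held for 1.6% of all probes.

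**Figure D2:**
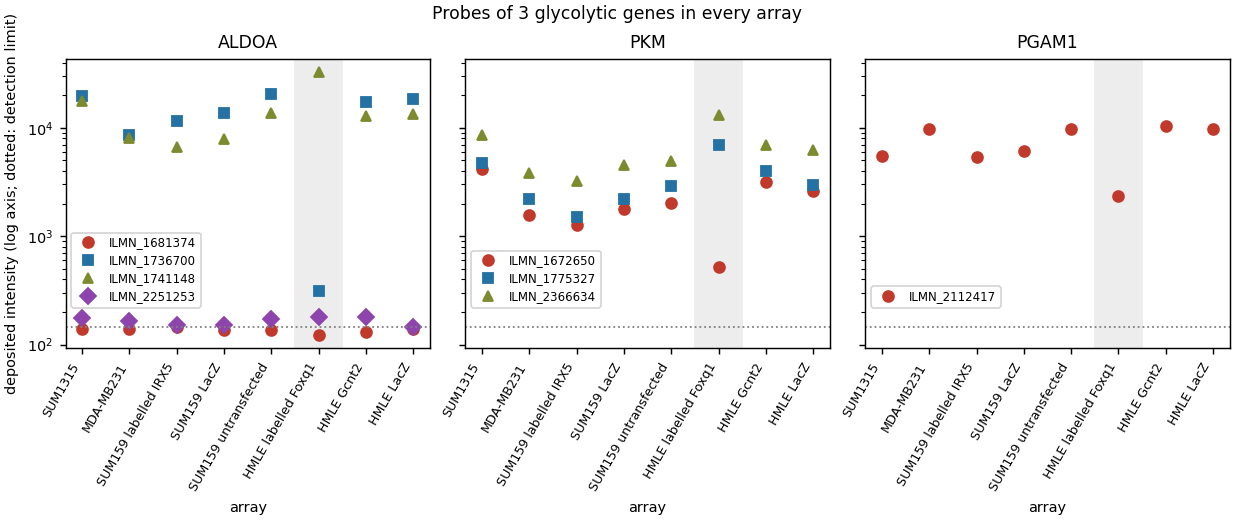
Deposited intensity (log axis) of every probe of ALDOA, PKM and PGAM1 in the 8 arrays (horizontal axis), with the array labelled Foxq1 shaded and the detection limit dotted. In the shaded array ILMN_1736700 of ALDOA reads 309 while ILMN_1741148 reads 32600, and ILMN_1672650 of PKM reads 519 while the other PKM probes read 6965 and 13031.

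Of the 5 genes with 2 or more probes above the limit in both arrays, ALDOA and PKM were the genes whose probes gave differences from HMLE LacZ over 2-fold apart, by 7.31 for ALDOA and 3.67 for PKM on the log2 scale. The widest such spread was 0.86 for Gcnt2 against HMLE LacZ (6 genes) and 0.56 for SUM159 LacZ against untransfected SUM159 (8 genes). For the array labelled IRX5 it was 0.78 against SUM159 LacZ (9 genes) and 0.87 against untransfected SUM159 (8 genes). Between the lines the widest spread of any comparison was that of ALDOA, 1.17 for MDA-MB231 against untransfected SUM159, where its dim probe ILMN_2251253 differed least. For SUM1315 against untransfected SUM159 HK1 had the widest spread, 0.73. Without ALDOA and PKM, an alternative added after the values were seen, 4 of 39 probes were at least 2-fold higher and 2 lower (5.6% and 6.98% of all probes were). This is a smaller share than the 11 of 45 with both genes, so part of the excess over all probes came from them. Both were left out because their probes lay far apart, which favours a smaller share. P4HA2, whose dimmer probe lay below the limit in the array labelled Foxq1, was not among the 5 genes and stayed in. The median stayed at 0.46. Markers of epithelial cells also differed between these arrays: CDH1 read 1191 in the array labelled Foxq1 and 8097 in HMLE LacZ. Of 6 epithelial markers 4 lay above the limit in the array labelled Foxq1 and 5 in HMLE LacZ, with summed intensities of 4353 in the array labelled Foxq1 and 17157 in HMLE LacZ. The 4 mesenchymal markers did not go one way. VIM (vimentin) read 35642 in the array labelled Foxq1 and 16941 in HMLE LacZ, while CDH2 (N-cadherin) read 3301 in the array labelled Foxq1 and 6067 in HMLE LacZ. FN1 (fibronectin) was lower there by all 3 of its probes, and ZEB1 lay below the limit in both arrays. Their summed intensity was 39746 in the array labelled Foxq1 and 24264 in HMLE LacZ, of which VIM made up most. Their part in the result was not tested.

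Other genes of the pathways were read from further lists, whose counts stand against 5.6% of all probes higher and 6.98% lower. Among regulators of HIF, EPAS1 (HIF-2 alpha) read 5180 in the array labelled Foxq1 and 1764 in HMLE LacZ, 2.97-fold higher, and HIF1AN, the asparagine hydroxylase that silences HIF, was 2.14-fold higher. HIF1A was inconsistent: 1 probe read 599 in the array labelled Foxq1 and 1465 in HMLE LacZ, 2.53-fold lower, and the other read 1832 in the array labelled Foxq1 and 1086 in HMLE LacZ. On the whole, 2 of 13 probes of that list were higher and 1 lower. Of the glycogen genes 2 of 9 probes were higher, the branching enzyme GBE1 by 3.98-fold and PPP1R3C, which targets a phosphatase to glycogen, by 2.07-fold, with a list median of 0.51. PGLS of the pentose phosphate pathway was 2.63-fold higher, the only one of 6 probes past 2-fold. In the lactate and pyruvate list 3 of 17 probes were higher: pyruvate carboxylase, PC, by 2.65-fold and 2.72-fold with its pair of probes, and the mitochondrial PEP carboxykinase PCK2 by 2.26-fold with its brightest probe. A second PCK2 probe went the other way, with 191 in the array labelled Foxq1 and 254 in HMLE LacZ. None of 9 probes of other glycolysis isoforms was 2-fold apart. Further hypoxia targets went both ways, 3 higher and 3 lower of 35 probes with a median of 0.02. ZNF395, a transcriptional regulator, was 4.25-fold higher, the lipoprotein receptor VLDLR 2.54-fold and the mTOR inhibitor DDIT4 2.05-fold. EDN1 (endothelin-1) was 3.72-fold lower, the glucose transporter SLC2A12 at least 2.23-fold, and PLOD2, a collagen lysyl hydroxylase, was 3.31-fold lower by 1 of its 3 probes. The brightest PLOD2 probe read 8961 in the array labelled Foxq1 and 7492 in HMLE LacZ.

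HMLE Gcnt2, set against the same LacZ array, held no probe of the list 2-fold apart in 44 compared, and 0.997% of all probes lay that far apart (0.267% higher and 0.73% lower). The median was 0.01, with 23 probes higher and 21 lower. The widest difference upward was in ANKRD37, an ankyrin repeat gene induced by hypoxia, with 1112 in HMLE Gcnt2 and 691 in HMLE LacZ, 1.64-fold. The widest downward was the dimmer P4HA2 probe, with 235 in HMLE Gcnt2 and 397 in HMLE LacZ, while the brighter one read 1710 in HMLE Gcnt2 and 1688 in HMLE LacZ. The bright VEGFA probe, of the angiogenic growth factor, differed by 0.53 on the log2 scale and ILMN_1775327 of PKM by 0.45. SLC2A1 read 4915 in HMLE Gcnt2 and 4367 in HMLE LacZ, and NDRG1 3845 in HMLE Gcnt2 and 3174 in HMLE LacZ, the highest values of both genes among the 8 arrays. In the further lists PPP1R3C was 2.23-fold lower in HMLE Gcnt2, the collagen cross-linking enzyme LOX 2.59-fold lower and STC2, a secreted stanniocalcin, 2.31-fold lower. No probe of the HIF, lactate and pyruvate, isoform or pentose phosphate lists was 2-fold apart.

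**Figure D3:**
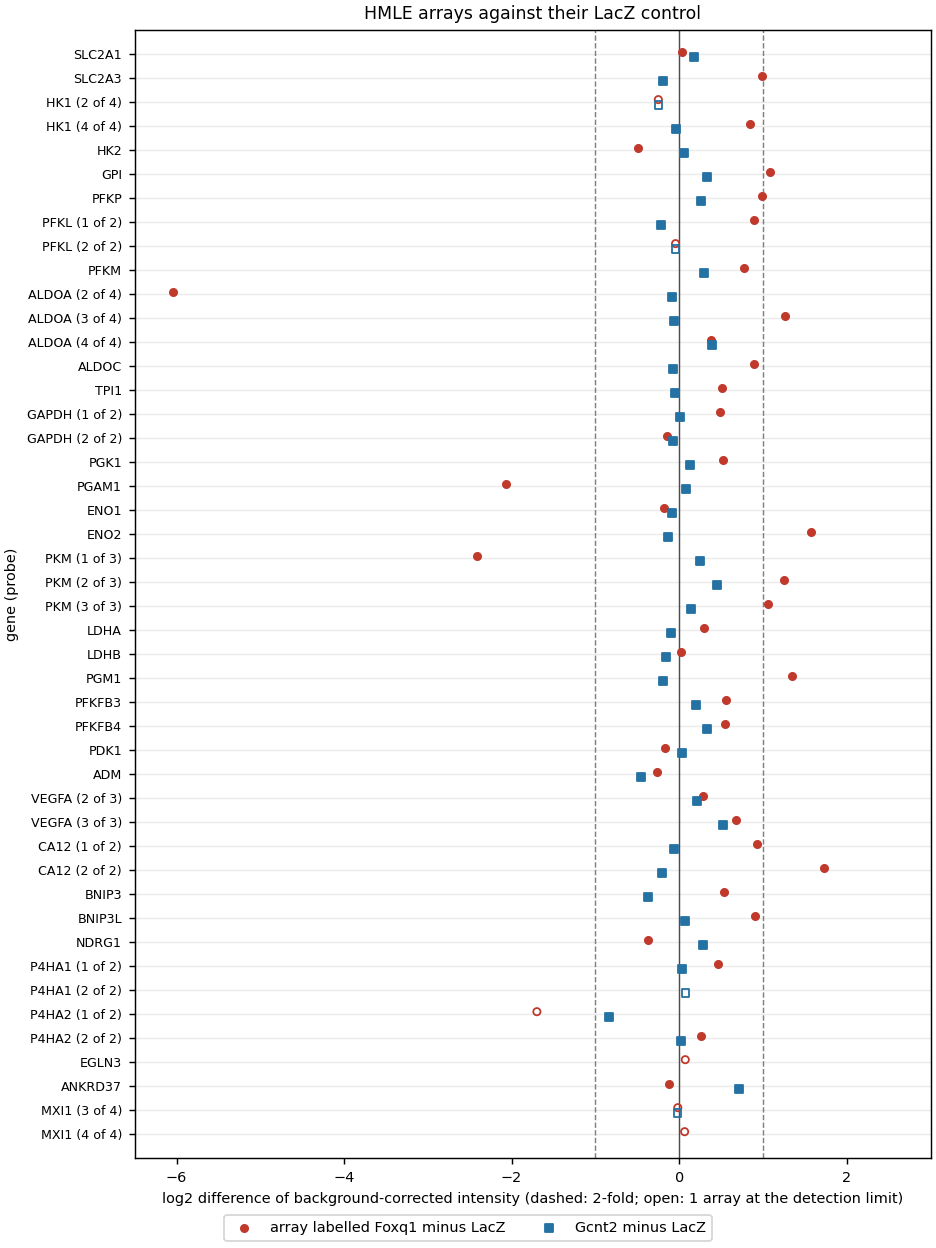
Log2 differences of background-corrected intensity from HMLE LacZ for each compared probe (rows), for the array labelled Foxq1 (circles) and Gcnt2 (squares), with open symbols where 1 array lay below the detection limit and dashed lines at 2-fold. The squares all lie inside the dashed lines, and the circles reach 1.73 upward (CA12) and -6.04 downward (ALDOA).

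SUM159 labelled IRX5 was compared with both SUM159 controls, a comparison meant in the design text for finding genes downstream of IRX5, although the IRX5 probe was no higher in that array. ADM, PFKFB4 and ALDOC were at least 2-fold lower than in either control. None of these genes has a second probe to set beside the first. Against SUM159 LacZ, 1 of 47 probes was at least 2-fold higher (2.13%, against 1.15% of all probes) and 3 lower (6.38%, against 1.87%), or 8.51% in either direction against 3.02%. Against untransfected SUM159, 2 of 47 were higher (4.26%, against 2.91%) and 8 lower (17.0%, against 3.28%), or 21.3% in either direction against 6.19%. Over all probes, 0.81% were 2-fold lower than both controls and 0.781% higher. The comparisons share the array labelled IRX5, so they are not independent.

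ADM read 790 in the array labelled IRX5, 2992 in SUM159 LacZ and 2241 in untransfected SUM159. The difference was 3.90-fold from LacZ and 2.91-fold from untransfected SUM159, and the other 5 arrays read between 2518 and 6131. PFKFB4 read 199 in the array labelled IRX5, 858 in SUM159 LacZ and 461 in untransfected SUM159, 4.92-fold and 2.56-fold lower. For both genes the array labelled IRX5 was the lowest of the 8 by over 2-fold, which held for 0.129% of all probes. PFKFB4 was itself 1.92-fold higher in SUM159 LacZ than in untransfected SUM159, so its controls lay almost 2-fold apart. ALDOC read 488 in the array labelled IRX5, 1079 in SUM159 LacZ and 970 in untransfected SUM159, 2.29-fold and 2.06-fold lower, with controls close to each other. Without background correction the difference from untransfected SUM159 was just under 2-fold.

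The promoters of these 3 genes are shown because they are the members that were lower than both controls and because HIF binds a short core motif near many of its targets. Each window is RefSeq's, of build GRCh38.p14, and runs from 250 bases before to 50 bases after a transcript start. Capitals mark ACGTG or GCGTG on either strand, the core letters of the hypoxia response element, and ACGTG also lies inside the E-box CACGTG. ALDOC is at chr17:28576846-28577145 on the minus strand, PFKFB4 at chr3:48556754-48557053 on the minus strand and ADM at chr11:10304823-10305122 on the plus strand.
ALDOC: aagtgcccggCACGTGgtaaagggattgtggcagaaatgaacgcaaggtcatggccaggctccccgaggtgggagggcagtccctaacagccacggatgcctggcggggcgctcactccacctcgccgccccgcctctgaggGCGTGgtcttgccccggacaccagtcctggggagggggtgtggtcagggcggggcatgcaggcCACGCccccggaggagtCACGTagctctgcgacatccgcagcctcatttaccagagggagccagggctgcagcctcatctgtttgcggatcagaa
PFKFB4: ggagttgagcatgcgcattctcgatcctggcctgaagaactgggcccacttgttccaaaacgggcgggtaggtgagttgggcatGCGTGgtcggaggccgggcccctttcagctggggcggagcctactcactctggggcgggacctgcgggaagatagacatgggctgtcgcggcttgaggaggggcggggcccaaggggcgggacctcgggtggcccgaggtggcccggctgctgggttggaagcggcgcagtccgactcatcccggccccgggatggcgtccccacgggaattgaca
ADM: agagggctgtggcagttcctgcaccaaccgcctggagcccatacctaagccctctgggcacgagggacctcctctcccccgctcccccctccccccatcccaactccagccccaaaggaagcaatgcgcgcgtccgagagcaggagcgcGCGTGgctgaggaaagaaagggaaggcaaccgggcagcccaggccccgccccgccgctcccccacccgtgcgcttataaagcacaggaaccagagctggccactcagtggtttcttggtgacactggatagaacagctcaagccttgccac
The ALDOC window held 5 matches, among them 1 E-box that counts on both strands, and the PFKFB4 and ADM windows held 1 match each, at positions -166 and -101 from the start. At least 1 match lay in 37 of the 57 windows of member genes (64.9%), against 48.4% of all 35116 windows of this length. Windows were found for 31 of the 35 genes, some with several. Counted by gene, 28 of the 31 (90.3%) had a match in any window, against 52.4% of all genes. That count favours genes with several windows: the members have 57 windows for 31 genes, and all 27305 genes have 35116. The list was also chosen to hold hypoxia response genes, so no conclusion is drawn from these shares. MXI1, which had a probe higher in the array labelled IRX5, has a window with 2 matches, so matches were not particular to the lowered genes. A match describes the letters and does not show binding.

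Glycolytic genes were also lower in the array labelled IRX5 against untransfected SUM159, and part of that difference was present in the LacZ array. PFKP read 2051 in the array labelled IRX5, 3545 in SUM159 LacZ and 6124 in untransfected SUM159, 3.02-fold below untransfected SUM159 and 1.74-fold below LacZ. ENO2 read 254 in the array labelled IRX5, 398 in SUM159 LacZ and 590 in untransfected SUM159, 2.51-fold below untransfected SUM159. PGK1, phosphoglycerate kinase, read 1933 in the array labelled IRX5, 2348 in SUM159 LacZ and 4438 in untransfected SUM159, 2.32-fold below untransfected SUM159. In all of these SUM159 LacZ lay between the array labelled IRX5 and untransfected SUM159. The same order held for ILMN_1741148 of ALDOA (2.05-fold below untransfected SUM159) and for the dimmer CA12 probe (2.37-fold below). Against untransfected SUM159, 35 of 47 probes were lower in the array labelled IRX5 (74.5%, against 49.3% of all probes) and 34 of 46 were lower in SUM159 LacZ (73.9%, against 52.5%). Against SUM159 LacZ, 29 of 47 were lower in the array labelled IRX5 (61.7%, against 47.7%).

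VEGFA, against untransfected SUM159, and MXI1, against LacZ, were the members on the higher side. The brightest VEGFA probe read 1461 in the array labelled IRX5, 960 in SUM159 LacZ and 437 in untransfected SUM159, 3.52-fold above untransfected SUM159 and 1.54-fold above LacZ. The second VEGFA probe was 3.08-fold above untransfected SUM159 and 1.19-fold above LacZ. VEGFA was also the only gene with a 2-fold difference between the controls, 2.29-fold and 2.59-fold higher in SUM159 LacZ than in untransfected SUM159 by these probes (2 of 46 probes, 4.35%, against 2.15% of all probes, with none lower against 1.25%). The brightest MXI1 probe read 408 in the array labelled IRX5, 209 in SUM159 LacZ and 253 in untransfected SUM159, 2.12-fold above LacZ and 1.69-fold above untransfected SUM159. All 3 MXI1 probes that passed the limit were highest in the array labelled IRX5. BNIP3L, a mitophagy receptor, read 324 in the array labelled IRX5, 190 in SUM159 LacZ and 297 in untransfected SUM159, so its place depended on the control.

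**Figure D4:**
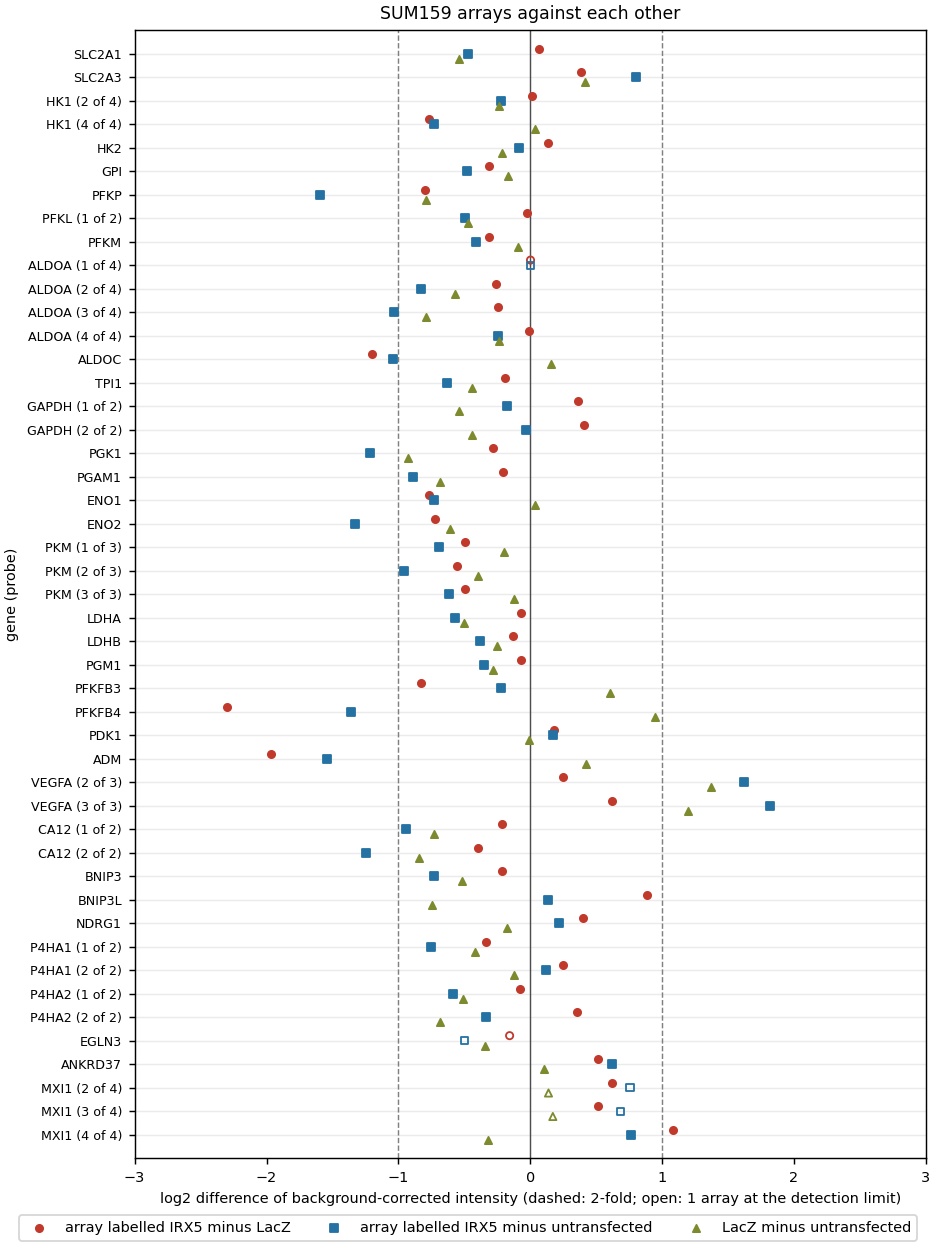
Log2 differences of background-corrected intensity between the SUM159 arrays for each compared probe (rows), as the array labelled IRX5 minus LacZ (circles), the array labelled IRX5 minus untransfected (squares) and LacZ minus untransfected (triangles), with dashed lines at 2-fold and open symbols where 1 array lay below the detection limit. PFKFB4, ADM and ALDOC have both circle and square left of the lower line, and VEGFA has square and triangle right of the upper line.

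Among further hypoxia targets in SUM159, STC1, a secreted stanniocalcin, was at least 3.02-fold lower in the array labelled IRX5 than in LacZ and at least 6.87-fold lower than in untransfected SUM159. The bright PLOD2 probe was 2.15-fold and 3.97-fold lower, and EDN1 2.00-fold and 3.85-fold lower. HMOX1, heme oxygenase, read 5835 in the array labelled IRX5, 2184 in SUM159 LacZ and 615 in untransfected SUM159, 2.70-fold and 9.93-fold higher. It was also 3.69-fold higher in SUM159 LacZ than in untransfected SUM159. Of this list 1 of 33 probes was higher and 3 lower against LacZ (1.15% and 1.87% of all probes were), and 3 of 34 were higher and 7 lower against untransfected SUM159 (2.91% and 3.28% of all probes were). LOX was 4.52-fold lower and TMEM45A, a transmembrane gene, 2.83-fold lower in SUM159 LacZ than in untransfected SUM159, where 2 of 34 probes of the list were higher and 4 lower (2.15% and 1.25% of all probes were). The brightest PCK2 probe read 4590 in the array labelled IRX5, 2724 in SUM159 LacZ and 831 in untransfected SUM159. PDK4, another pyruvate dehydrogenase kinase, was 3.42-fold lower in the array labelled IRX5 than in LacZ, where it was 2.42-fold above untransfected SUM159, and CITED2, which competes with HIF for its coactivator, 2.08-fold lower. PPP1R3C was 3.76-fold higher in the array labelled IRX5 and 2.83-fold higher in LacZ than in untransfected SUM159.

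The untransfected cancer lines were then compared with each other. SUM1315 was set apart by little SLC2A1 and much ENO2, MDA-MB231 by NDRG1, and SUM159 by CA12. ADM was highest in MDA-MB231 (6131), but SUM1315 (3408) lay less than 2-fold below it, by 1.81-fold. Of these genes, only CA12 has a second probe. SLC2A1 read 510 in SUM1315, 4597 in MDA-MB231 and 3090 in untransfected SUM159, and between 2135 and 4915 in the other 5 arrays. SUM1315 was thus 9.53-fold below MDA-MB231, 6.39-fold below untransfected SUM159 and 4.39-fold below the nearest of all other arrays. ENO2 read 2116 in SUM1315, 606 in MDA-MB231 and 590 in untransfected SUM159. It was 3.63-fold higher in SUM1315 than in MDA-MB231 and 2.24-fold higher than in the nearest other array, HMLE labelled Foxq1. Over all probes SUM1315 was highest by 2-fold at 2.66% and lowest by 2-fold at 1.3%.

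Against untransfected SUM159, 2 of 45 probes were at least 2-fold higher in SUM1315 (4.44%, against 9.29% of all probes) and 6 lower (13.3%, against 8.48%), or 17.8% in either direction, the same share as over all probes (17.8%). The higher ones were ENO2 and ILMN_1672650 of PKM (2.07-fold). PGK1 read 1346 in SUM1315 and 4438 in untransfected SUM159, 3.35-fold lower, but the array labelled IRX5 read 1933 and SUM159 LacZ 2348, nearer to SUM1315. BNIP3, a mitophagy receptor induced by HIF, was 2.37-fold lower in SUM1315 and HK2, the inducible hexokinase, 2.06-fold lower. CA12 read 844 in SUM1315, 605 in MDA-MB231 and 5754 in untransfected SUM159 by its brighter probe. It was 7.04-fold lower in SUM1315 and 9.96-fold lower in MDA-MB231 than in untransfected SUM159, and the dimmer probe differed by 11.0-fold and 8.75-fold. Against the whole range of the 3 SUM159 arrays, 5 probes of SUM1315 remained 2-fold outside: ENO2 and the PKM probe above (6.13% of all probes were), SLC2A1 and both CA12 probes below (4.88% of all probes were).

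MDA-MB231 was lower than untransfected SUM159 in 34 of 44 probes (77.3%, against 49.5% of all probes), with a median of -0.28 against 0.01 over all probes compared. This was not particular to MDA-MB231, since the other SUM159 arrays were lower than untransfected SUM159 at similar shares (73.9% for LacZ, 74.5% for the array labelled IRX5). SUM1315 was lower than untransfected SUM159 at 60% of probes (50.8% of all probes were). These comparisons share the untransfected SUM159 array, so they are not independent. In MDA-MB231, 3 probes were at least 2-fold higher (6.82%, against 6.69%) and 5 lower (11.4%, against 6.7%), or 18.2% in either direction against 13.4%. ADM read 6131 in MDA-MB231 and 2241 in untransfected SUM159, 2.76-fold higher and the highest of the 8 arrays. NDRG1 read 1930 in MDA-MB231 and 712 in untransfected SUM159, 2.79-fold higher. PFKFB3, the inducible maker of fructose 2,6-bisphosphate, was 2.02-fold higher. PGK1 was 2.44-fold lower, BNIP3L 2.09-fold and ILMN_1736700 of ALDOA 2.37-fold, while ILMN_1741148 of ALDOA was lower by 0.76 on the log2 scale. PGK1 read 1835 in MDA-MB231, near the array labelled IRX5 (1933) and SUM159 LacZ (2348). BNIP3L read 158 in MDA-MB231, 324 in the array labelled IRX5 and 190 in SUM159 LacZ. Beyond all 3 SUM159 arrays lay 4 probes, ADM and NDRG1 above (4.77% of all probes were) and both CA12 probes below (3.81% of all probes were).

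SUM1315 and MDA-MB231 differed in more of the list: 8 of 44 probes were at least 2-fold higher in SUM1315 (18.2%, against 10.4% of all probes) and 5 lower (11.4%, against 10.2%), or 29.5% in either direction against 20.6%. All 3 PKM probes were higher in SUM1315, by 2.68-fold, 2.16-fold and 2.27-fold, and both bright ALDOA probes by 2.32-fold and 2.20-fold. Several of the 8 were thus probes of the same genes. With 1 probe per gene, 5 of 33 probes were higher in SUM1315 and 5 lower. PFKL read 1452 in SUM1315 and 443 in MDA-MB231, 3.45-fold higher, and ALDOC 1215 in SUM1315 and 616 in MDA-MB231, 2.02-fold higher. Besides SLC2A1, NDRG1 was 4.51-fold lower in SUM1315, PFKFB3 3.11-fold, HK2 2.30-fold and BNIP3 2.01-fold. Upper and lower enzymes had medians of 0.37 and 0.47.

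**Figure D5:**
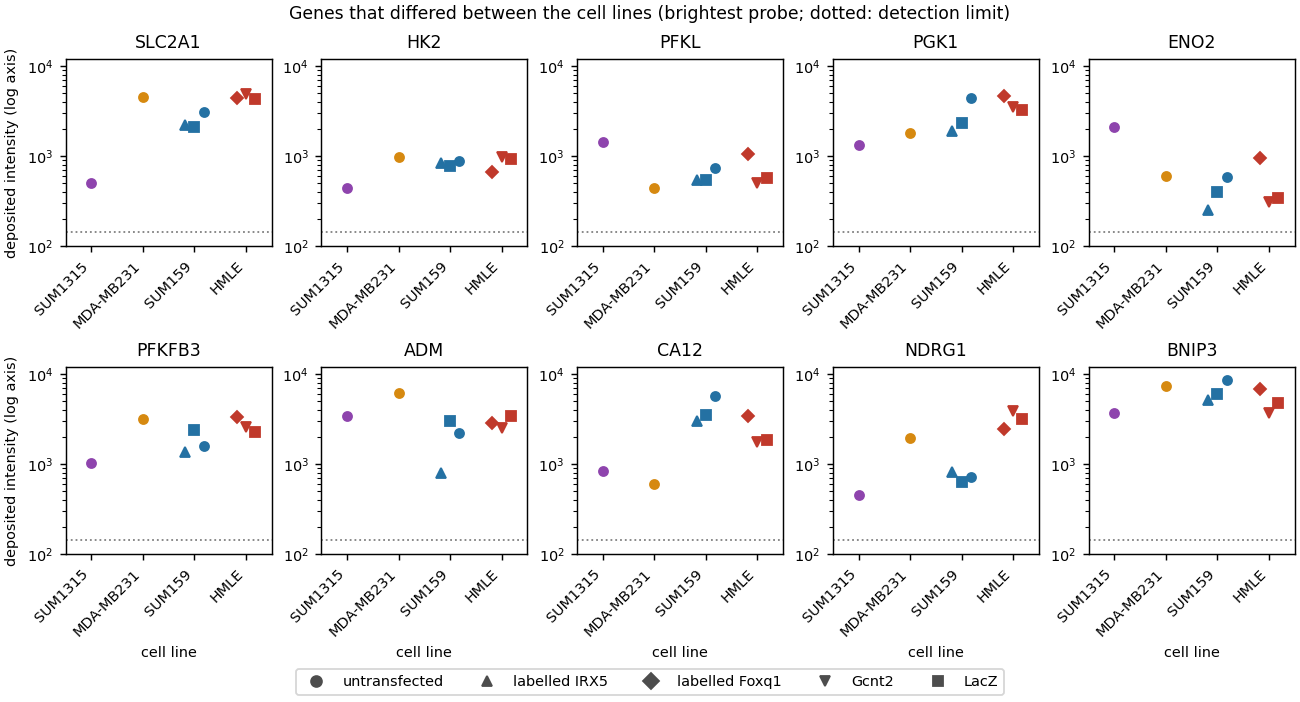
Deposited intensity (log axis) of the brightest probe of 10 genes in each array, by cell line (horizontal axis), with the transgene given by the symbol and the detection limit dotted. SLC2A1 is lowest and ENO2 highest in SUM1315, CA12 is lower in SUM1315 and MDA-MB231 than in any SUM159 or HMLE array, and NDRG1 is higher in all 3 HMLE arrays than in all 3 SUM159 arrays.

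Upstream genes differed between the lines as well. Both HIF1A probes were lower in SUM1315 than in untransfected SUM159, by 3.62-fold and 3.68-fold, and in MDA-MB231, by 2.47-fold and 2.43-fold. EPAS1 was 2.88-fold lower in SUM1315 than in untransfected SUM159, and ARNT2, a partner of the HIF-alpha subunits, at least 3.43-fold higher. Over all probes, 9.29% were higher and 8.48% lower in SUM1315, and 6.69% higher and 6.7% lower in MDA-MB231, than in untransfected SUM159, which applies to the counts that follow. Of 14 probes of the HIF list 2 were higher and 4 lower in SUM1315, and 1 higher and 2 lower in MDA-MB231, than in untransfected SUM159. Other hypoxia targets had other patterns than SLC2A1. LOX read 18696 in SUM1315, 510 in MDA-MB231 and 696 in untransfected SUM159, and HMOX1 9142 in SUM1315, 577 in MDA-MB231 and 615 in untransfected SUM159. SLC2A12 was 3.88-fold higher in SUM1315 than in untransfected SUM159. STC1 read 172 in SUM1315, 1022 in MDA-MB231 and 804 in untransfected SUM159. However, STC1 read 132 in the array labelled IRX5 and 372 in SUM159 LacZ. HMOX1 likewise varied within SUM159, with 5835 in the array labelled IRX5 and 2184 in SUM159 LacZ. The list held 7 higher and 5 lower of 34 probes for SUM1315, and 1 higher and 7 lower of 34 for MDA-MB231, against untransfected SUM159. STC2 was at least 15.6-fold lower in MDA-MB231 than in untransfected SUM159 and TMEM45A 8.83-fold lower. The other SUM159 arrays were nearer for TMEM45A, with 276 in MDA-MB231, 1101 in the array labelled IRX5 and 795 in SUM159 LacZ. The liver-type glycogen phosphorylase PYGL read 2489 in SUM1315, 2183 in MDA-MB231 and 171 in untransfected SUM159. FBP1, which runs the phosphofructokinase step backwards, read 568 in MDA-MB231 and lay between 90.2 and 115 in the other 7 arrays, below the limit.

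The 3 SUM159 arrays were last set against the 3 HMLE arrays. These carry different transgenes and are not replicates of 1 condition, so ranges are given. Only NDRG1 had a gap of at least 2-fold between the nearest arrays, 1 of 48 probes (2.08%, against 4.15% of all probes in either direction, 1.53% with SUM159 higher and 2.62% with SUM159 lower). NDRG1 ran from 634 to 825 in the SUM159 arrays and from 2466 to 3845 in the HMLE arrays, a gap of 3.07-fold. Without overlap but closer, 10 probes of 9 genes, NDRG1 included, were lower in all SUM159 arrays (15.5% of all probes were) and 5 probes of 5 genes higher (18.7% of all probes were). P4HA2 ran from 620 to 978 in the SUM159 arrays and from 1688 to 2021 in the HMLE arrays by its brighter probe. SLC2A1 ran from 2135 to 3090 in the SUM159 arrays and from 4367 to 4915 in the HMLE arrays. PFKFB4 ran from 199 to 858 in the SUM159 arrays and from 1057 to 1527 in the HMLE arrays. The HMLE values were higher for these 3 genes and for ALDOC, LDHA, ANKRD37, the bright P4HA1 probe and a pair of PKM probes. The nearest arrays were only 1.05-fold apart for LDHA and 1.02-fold for ILMN_1775327 of PKM. The dimmer P4HA1 probe went the other way, from 155 to 179 in the SUM159 arrays and from 122 to 150 in the HMLE arrays. On the other side, LDHB ran from 10338 to 13488 in the SUM159 arrays and from 8596 to 9745 in the HMLE arrays. Of the HIF1A probes, the brighter ran from 3244 to 4491 in the SUM159 arrays and from 599 to 1465 in the HMLE arrays, while the ranges of the dimmer probe overlapped. The angiopoietin-like gene ANGPTL4 ran the other way, from 252 to 387 in the SUM159 arrays and from 2033 to 3220 in the HMLE arrays by its brightest probe.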

How the data were processed

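The deposited value table holds, for each of the 8 arrays, probe intensity on a linear scale, normalized by the authors. The 8 arrays have nearly the same sorted values (coefficient of variation 1.27% or less at any rank), as after quantile normalization. Per the submitters' processing notes, the tools were GenomeStudio, lumi 1.14 and R 2.11.1, and no background step is stated. A second table was not used, since no label ties its 16 columns to samples. Probes were named by the platform annotation (21834 of 24526 probes, 16922 genes), with symbols checked through Entrez numbers against RefSeq.

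Intensities were background-corrected with normexp (offset 50, limma 3.58.1, R 4.3.3) and put on a log2 scale. Folds are of corrected values and can exceed ratios of the deposited intensities. The detection limit of 144 came from the spread of intensities under the mode of 111, reflected to its upper side, with 0.01 of background allowed past it. With 1 array per group no test was made, and with no replicates the number of arrays limits the precision. Calls were tested on simulated data. Python 3.11.15, numpy 2.4.6, pandas 2.3.3 and matplotlib 3.10.9 were used. In each comparison member probes at least 2-fold apart were named (at most 12 per direction), with up to 3 genes per direction of each further list. The members and lists were chosen with earlier results of these data known.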

Additional observations from a re-analysis of the deposited data

How the results depend on the processing

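Numbers of member probes at least 2-fold apart were recomputed for 9 comparisons under 49 alternatives, and 44 stayed within 1.5 times. With 1 probe per gene, the count for the array labelled Foxq1 against HMLE LacZ was 6 of 34 probes in place of 11 of 45. Without ALDOA and PKM it was 6 of 39. The share in either direction therefore fell as well as the count, nearer to the 12.6% of all probes. By direction, 5 were higher and 1 lower with 1 probe per gene, in place of 7 and 4, so the fall was mainly on the lower side. Without ALDOA and PKM, 4 were higher and 2 lower. Over all probes 5.6% were higher and 6.98% lower. With 1 probe per gene, SUM159 LacZ against untransfected SUM159 gave 1 in place of 2. Measured from the range of all 3 SUM159 arrays, SUM1315 gave 5 in place of 8 and MDA-MB231 gave 4 in place of 8. The smaller sets of probes and the wider reference range are part of how these alternatives were built. All 11 calls for the array labelled Foxq1 held under each scaling, offset and detection limit tried, whereas calls near 2-fold held under 4 of 5 settings: MXI1 (array labelled IRX5 against LacZ), ALDOC (array labelled IRX5 against untransfected SUM159, and SUM1315 against MDA-MB231), HK2 (SUM1315 against untransfected SUM159), BNIP3L and PFKFB3 (MDA-MB231 against untransfected SUM159) and BNIP3 (SUM1315 against MDA-MB231). EGLN3 and most MXI1 probes lie near background, and most of their comparisons gave a bound or no value. No paired analysis was possible because each group has 1 array.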
